A study of Mus musculus with 12 samples.

Results

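Cd34, Podxl, Emcn, Cd164, Spn and Selplg encode cell-surface sialomucins, and their messenger RNA was followed in mouse mast cells of 2 culture ages. The 6 genes, of 18193 with a probe set of their own, were taken by their exact symbol in the platform annotation. Together they had 9 probe sets of the 45137 on the 2 array types used, 8 on the MOE430A array (chip A) and 1 on the MOE430B array (chip B). All cells were grown from mouse bone marrow with interleukin-3 (IL-3), a cytokine that supports mast cells and other myeloid cells. The precursor group was 3 cultures of 14 to 16 days (M1, M3, M5), and the mature group was 3 cultures of 57 to 110 days (M2, M4, M6). M1 and M6 came from females and the other 4 from males by their labels, which name no strain and no treatment other than the culture itself. Stated purity was near 80%, with stromal cells, monocytes and macrophages named as what else could be present. The stem cells in the series title are not analysed here.

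A sialomucin has an outer part so densely covered with O-linked sugar chains ending in sialic acid that it stands out from the membrane as a stiff, negatively charged rod. Such proteins can hold cells apart, and, where the sugars are built into selectin ligands, can instead let cells roll and attach. On mouse mast cells CD34 and CD43, the product of Spn, are known to limit adhesion, and CD34 also marks haematopoietic stem cells, progenitors and vascular endothelium.

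Each culture was read on 1 array of each chip, 12 arrays in all, and the labels tell no more than that the cultures were separate. A value is the array signal of a probe set on a linear scale, with the mean of each array set near 1500 by the authors. The median signal ran from 534 to 692 over the 6 arrays of chip A and from 816 to 913 over those of chip B. With so few arrays the precision of each value is limited. A probe set was tested when at least 3 of the 6 arrays lay above the table median, which was 582 for chip A and 864 for chip B. Values below a floor, 247 for chip A and 359 for chip B, had been set to that floor. Differences are in log2 signal, mature minus precursor, and a probe set was called changed at an adjusted p under 0.05 in limma. For 10 tested mast cell markers the summed signal was 475140 to 577090 in the precursor cultures and 469620 to 839180 in the mature ones. Cpa3 alone gave 283800 of the sum in M6, and Cma1 gave 237760. Cma1 was higher in all 3 mature cultures than in any precursor culture (adjusted p = 0.678 in limma). Tpsab1 gave -0.99 (adjusted p = 0.598 in limma). Of the 10, 1 was called, Hdc (histidine decarboxylase), which fell, beside 0.527% of all tested sets of chip A. This call was lost without M2 (adjusted p = 0.0557) and without M5 (0.0621). It was also lost over male cultures alone (0.0917) and with no filter on dim sets (0.396).

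Cd34, Selplg and the brighter probe sets of Spn and Cd164 were well above the median of their chips in all 6 cultures. Podxl lay around the chip median and Emcn mostly at the floor. None of the sialomucins changed by the test, and 2 of them, Cd164 and Selplg, had lower signal in all 3 mature cultures than in any precursor culture. Of the 9 probe sets, 6 were tested, standing for 5 genes, and 3 were not: 1 each of Podxl, Emcn and Cd164. On chip A 0 of 5 tested sets were called, where 0.527% of all tested sets were. On chip B 0 of 1 were called, where 0.0926% of all were. At an unadjusted p under 0.05 in limma 2 of 5 passed on chip A (6.59% of all tested sets) and 0 of 1 on chip B (6.42%). The same 2 sets were those with all mature cultures below all precursor cultures, an order held by 6.06% of the tested sets of chip A and by 5.83% of those of chip B. The median difference of the 6 tested sets was -0.019, beside 0.018 over all tested sets of chip A and 0.0040 over those of chip B. With 3 cultures against 3, the smallest exact p of a rank test is 0.1, and rank tests were left out.

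**Figure D1:**
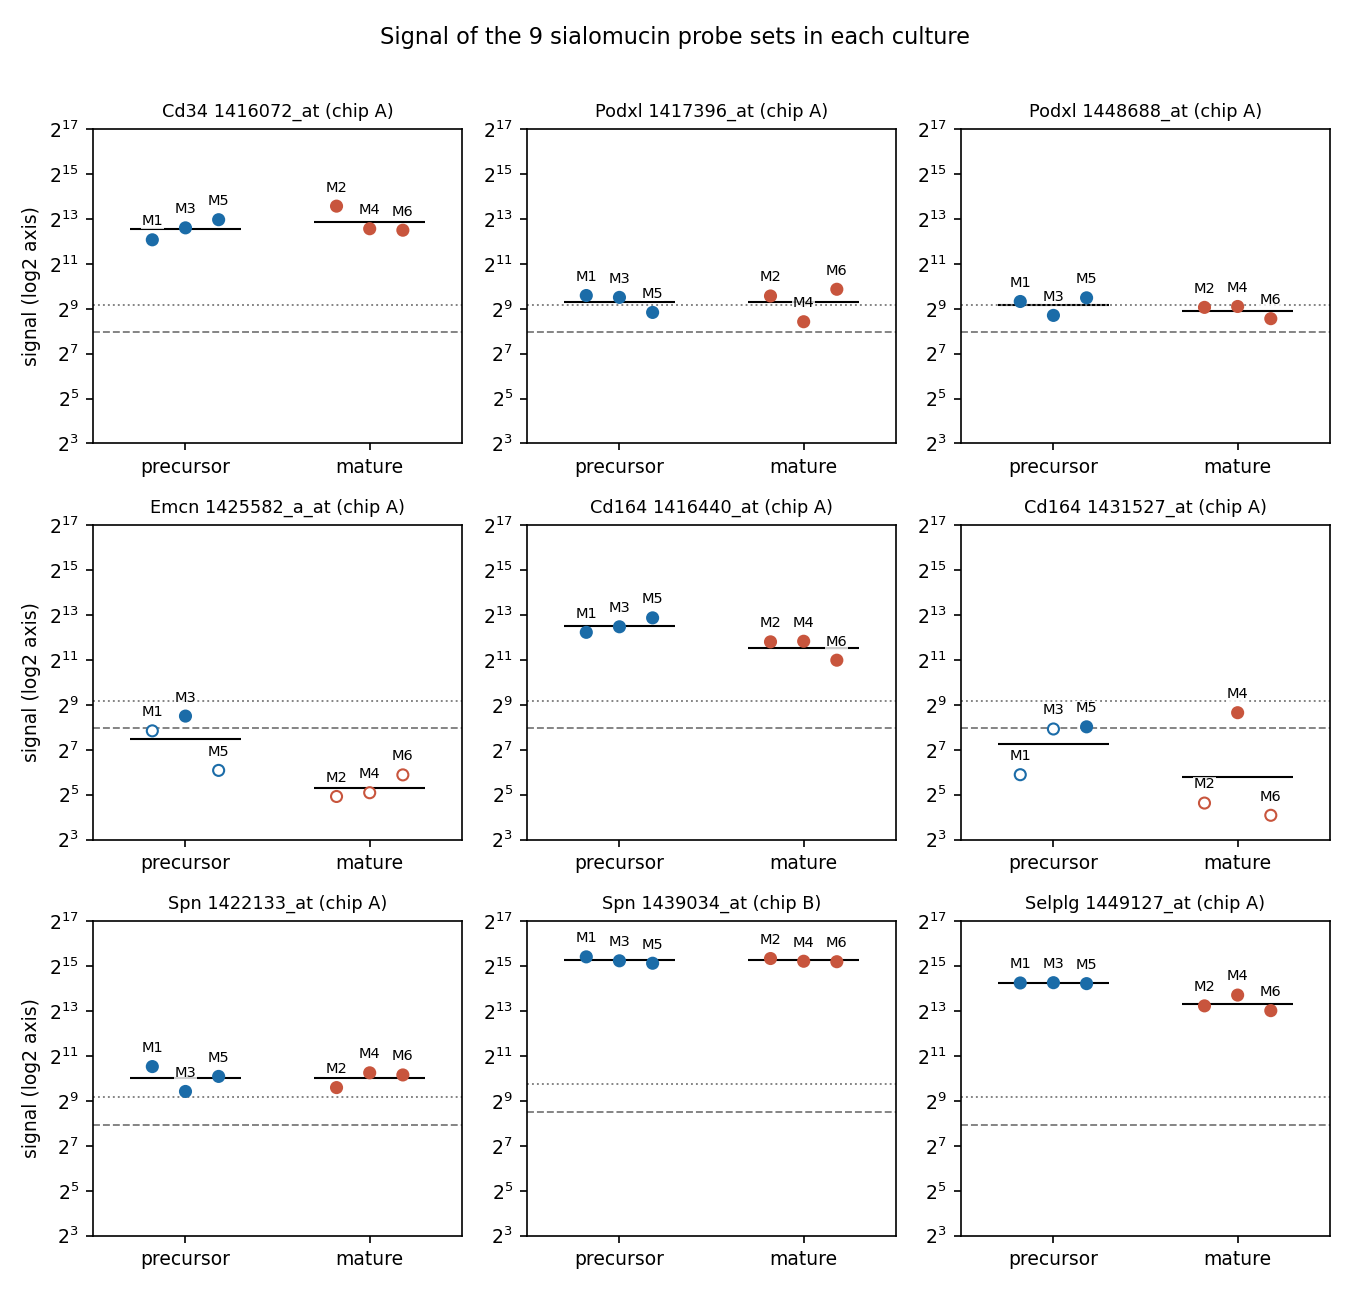
Signal (log2 axis) of the 9 probe sets of the 6 sialomucin genes in each precursor (blue) and mature (red) culture. Black bars are the means of the log2 signals as deposited, the dashed line is the floor of the chip, the dotted line is the median of its table, and open points lie below the floor. Spn on chip B and Selplg lie far above both lines in all 6 cultures, and Emcn is above the floor in M3 only.

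Cd34 and podocalyxin (Podxl) belong to the same small family of transmembrane sialomucins, whose cytoplasmic tails bind adaptor proteins. Cd34 had 1 probe set, 1416072_at on chip A. Its signal was 4308 in M1, 6231 in M3 and 8015 in M5 among the precursors. The mature culture M2 gave 12182, M4 gave 6062 and M6 gave 5795. M2 was the highest and M1 the lowest of the 6, and both M4 and M6 fell inside the range of the precursors, so the groups overlapped. On the log2 scale the signal was 12.55 ± 0.45 (SD, n = 3) in precursors and 12.88 ± 0.60 (SD, n = 3) in mature cultures. The difference was 0.33 ± 0.34 (SE) with an adjusted p of 0.915 in limma, and its 95% interval ran from -0.42 to 1.08, that is from 0.748-fold to 2.11-fold. The higher mature mean rested on M2: without it the difference was -0.016. M1 and M2, whose arrays were washed and stained on a first fluidics station, gave 1.50 between them, and the other 4 cultures, on a second station, gave -0.25. Here and for the other genes, the first station sets a female precursor culture against a male mature one, so sex is mixed in.

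The Cd34 promoter is shown because Cd34 was bright in every culture of a cell type that depends on the factor GATA2, and GATA words were therefore looked for. The window is chr1:194938571-194938870 of GRCm38.p6 on the plus strand, from RefSeq, 250 bases before to 50 after the start of the gene. Capitals mark the one GATA word (GATA with A or T before it and A or G after it, on either strand), here read on the minus strand. It begins at position -226, where the start base is 1 and no base is 0.
Cd34: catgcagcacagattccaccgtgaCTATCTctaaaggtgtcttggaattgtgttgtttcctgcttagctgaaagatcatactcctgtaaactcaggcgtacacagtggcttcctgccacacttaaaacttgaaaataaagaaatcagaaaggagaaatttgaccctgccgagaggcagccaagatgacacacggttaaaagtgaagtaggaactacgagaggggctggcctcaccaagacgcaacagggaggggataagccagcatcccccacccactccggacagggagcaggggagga
At least 1 GATA word was found in 29.8% of 32851 RefSeq windows of this length, so a match alone is common. The window had a GC content of 50% and 7 CpG dinucleotides, equal to the median of 7 over all windows, whose median GC content was 52.7%. Windows were present for 4 of the 6 genes, Cd34, Emcn, Cd164 and Spn.

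Podxl, named for the podocytes of the kidney, where it keeps the foot processes apart, had 2 probe sets on chip A. The brighter one, 1417396_at, gave 771 in M1, 728 in M3 and 457 in M5, against 760 in M2, 343 in M4 and 935 in M6. M6 was highest and M4 lowest, so that the mature cultures spanned the whole precursor range. The difference was -0.025 ± 0.45 (SE, adjusted p = 0.998 in limma), with a 95% interval from -1.02 to 0.97, so changes of up to about the fold range 0.494 to 1.95 were within the error. The second set, 1448688_at, had fewer than 3 arrays above the chip median and was not tested. It gave 641 in M1, 417 in M3 and 718 in M5, against 535 in M2, 550 in M4 and 377 in M6, again overlapping. The order of the cultures was not the same on the 2 sets: M6 was the highest culture on 1417396_at and the lowest on 1448688_at. The third gene of the family, Podxl2 (endoglycan), is no member of the set and was at the floor in all 6 cultures on chip B.

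Emcn encodes endomucin, a sialomucin of capillary and venous endothelium that also marks haematopoietic stem cells. Its 1 probe set, 1425582_a_at on chip A, was not tested. The signal was 229.6 in M1, 362 in M3 and 67.7 in M5, against 30.3 in M2, 34.0 in M4 and 59.0 in M6. M3 alone was above the floor of 247, and the 5 values below it have no order. No fold is given between the stages for this reason. The labels name no endothelial cells. Of 14 endothelial markers 9 were tested and 0 were called, beside 0.527% of all tested sets of chip A. The summed signal of the 9 was 7468 to 11077 in precursors and 9569 to 16080 in mature cultures. The median difference of the 9 was 0.091, and 3 of them were below 0, with Eng the lowest at -0.62. Vwf (von Willebrand factor) and Tek, an angiopoietin receptor, had the largest differences of the 9. Tek was higher in all 3 mature cultures than in any precursor culture, by 1.11 (adjusted p = 0.376 in limma). Vwf gave 1.22 with overlapping groups (adjusted p = 0.493 in limma), and made up 6138 of the sum in M6. Cdh5, Flt1, Sox17, Sox18 and Tie1 were too dim to be tested.

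The Emcn promoter is shown as that of the member that stayed near the floor, beside the bright Cd34. It spans chr3:137340828-137341127 of GRCm38.p6 (plus strand, RefSeq), and capitals mark its one GATA word, on the minus strand and starting at position 11.
Emcn: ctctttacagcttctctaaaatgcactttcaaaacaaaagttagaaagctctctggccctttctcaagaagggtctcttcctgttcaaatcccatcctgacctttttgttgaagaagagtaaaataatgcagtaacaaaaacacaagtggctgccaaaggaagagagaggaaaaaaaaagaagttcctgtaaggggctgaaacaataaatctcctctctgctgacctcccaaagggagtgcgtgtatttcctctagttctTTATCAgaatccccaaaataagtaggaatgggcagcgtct
The GC content was 41% with 2 CpG, and 14.1% of windows had fewer. Both the bright Cd34 and the dim Emcn therefore held 1 match in this window.

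Cd164 encodes endolyn, a sialomucin that cycles between the cell surface, endosomes and lysosomes, and that takes part in the adhesion and CXCR4-dependent migration of human CD34+ progenitors. Its main probe set, 1416440_at on chip A, gave 4810 in M1, 5710 in M3 and 7521 in M5, against 3586 in M2, 3651 in M4 and 2035 in M6. Every mature culture was below every precursor culture, M5 was the highest and M6 the lowest. The log2 signal was 12.53 ± 0.33 (SD, n = 3) in precursors and 11.54 ± 0.48 (SD, n = 3) in mature cultures. The difference was -0.99 ± 0.30 (SE), a 1.98-fold lower signal, with a 95% interval from -1.64 to -0.33. It did not pass the test over the whole chip (adjusted p = 0.346 in limma) and stood at rank 243 of 11576 by p. Leaving out each culture in turn gave -1.13 to -0.71, with adjusted p from 0.351 to 0.988 in limma. Over 10 other ways of processing the adjusted p was between 0.132 and 0.74. The difference was -0.42 between the cultures of the first fluidics station, M1 and M2, and -1.27 among the other 4. A second probe set, 1431527_at, was at or near the floor and not tested: 59.3 in M1, 243 in M3 and 260 in M5, against 24.7 in M2, 402 in M4 and 16.9 in M6. Of those 6 values M5 and M4 alone were above the floor, so the set gives no order of the stages.

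The promoter of Cd164 is printed for contrast with the other windows: it was the only one of the 4 with the E-box word CACGTG and was rich in CpG. It spans chr10:41519250-41519549 of GRCm38.p6 (plus strand, RefSeq), and capitals mark CACGTG, at position -87, which reads the same on both strands.
Cd164: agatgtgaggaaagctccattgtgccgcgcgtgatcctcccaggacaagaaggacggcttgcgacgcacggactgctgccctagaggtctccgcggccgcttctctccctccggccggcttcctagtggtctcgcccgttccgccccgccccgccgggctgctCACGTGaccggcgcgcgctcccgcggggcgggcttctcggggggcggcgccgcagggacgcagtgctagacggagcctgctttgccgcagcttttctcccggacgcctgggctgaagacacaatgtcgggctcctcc
The window had a GC content of 70% and 36 CpG, and 93.8% of all windows had fewer. CACGTG was found in 7.15% of windows. The Spn window, at chr7:127137774-127138073 on the minus strand, had a GC content of 57.3% with 3 CpG and neither kind of word.

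Spn encodes CD43 (leukosialin), one of the most abundant sialomucins of white blood cells, whose tail binds ezrin and moesin. Its set on chip B, 1439034_at, gave 43851 in M1, 38821 in M3 and 36002 in M5, against 41656 in M2, 38292 in M4 and 37753 in M6. The highest culture was 1.22 times the lowest, where for Cd34 it was 2.83 times, and the groups overlapped. The log2 signal was 15.27 ± 0.14 (SD, n = 3) in precursors and 15.26 ± 0.077 (SD, n = 3) in mature cultures. The difference was -0.0085 ± 0.20 (SE, adjusted p = 0.995 in limma), and the 95% interval of -0.45 to 0.44 leaves folds from 0.731 to 1.35 within the error. The second set, 1422133_at on chip A, gave 1481 in M1, 687 in M3 and 1093 in M5, against 774 in M2, 1222 in M4 and 1144 in M6. M1 was highest and M3 lowest, so the precursors enclosed the mature cultures. The difference was -0.013 ± 0.34 (SE, adjusted p = 0.999 in limma), and within the stations it was -0.94 for M1 and M2 and 0.45 for the other 4. The pseudogene Spn-ps had a dim probe set of its own on chip A, with overlapping groups. Its mean log2 signal was 8.33 in precursors and 8.49 in mature cultures, below the chip median of 9.18. Whether the Spn sets also read its RNA was not tested.

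Selplg encodes PSGL-1, the main ligand on leukocytes for P-selectin, which it binds once its sugars and tyrosines have been suitably modified. Its 1 probe set, 1449127_at on chip A, gave 19578 in M1, 19755 in M3 and 19188 in M5, against 9657 in M2, 13475 in M4 and 8333 in M6. The 3 precursor cultures lay close together and every mature culture was below them, with M4 the least low. The log2 signal was 14.25 ± 0.021 (SD, n = 3) in precursors and 13.33 ± 0.36 (SD, n = 3) in mature cultures. The difference was -0.92 ± 0.24 (SE), a 1.90-fold lower signal, with a 95% interval from -1.45 to -0.40. It did not pass the test (adjusted p = 0.192 in limma) and stood at rank 163 of 11576 by p. Each culture left out in turn gave -1.12 to -0.77, with adjusted p from 0.164 to 0.498. The difference was -1.02 between M1 and M2 on the first station and -0.88 among the other 4, and -0.77 over the 4 male cultures alone. In such bulk RNA, fewer cells of one type and less RNA per cell cannot be told apart.

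**Figure D2:**
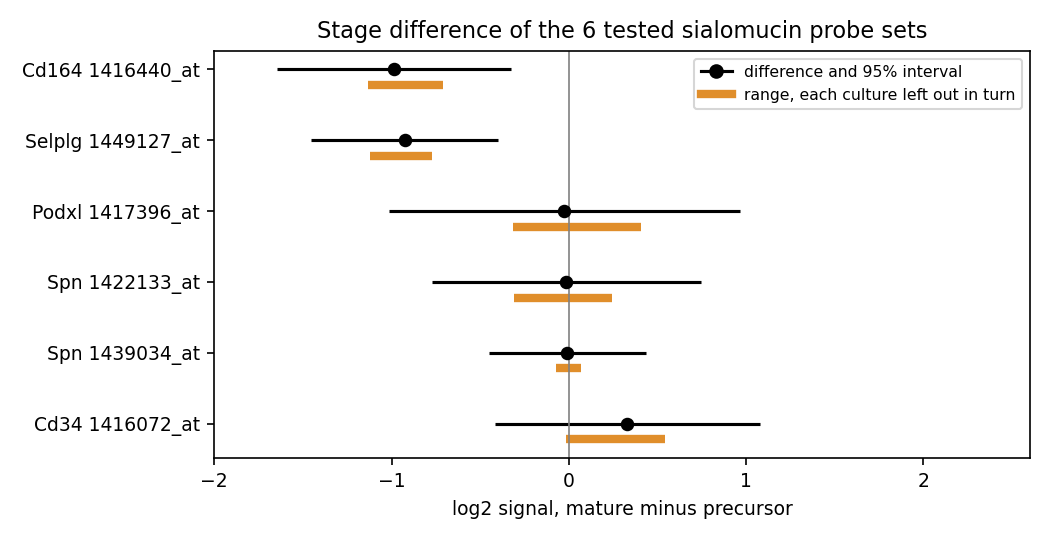
Difference in log2 signal, mature minus precursor, for the 6 tested probe sets. Points and black lines are the limma difference and its 95% interval (3 cultures against 3), and orange bars are the range when each culture is left out in turn. The intervals of Cd164 (-1.64 to -0.33) and Selplg (-1.45 to -0.40) lie below 0, with neither set passing the adjusted test, and those of the other 4 sets include 0.

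Markers of other cells moved between the same cultures in which Cd164 and Selplg were lower. Over all tested sets, 0.527% were called on chip A and 0.0926% on chip B. Of 13 tested monocyte and macrophage markers, from 15 listed, 8 fell (Lyz1, Lyz2, Ctss, Mpeg1, Csf1r, Clec7a, Cd68 and Adgre1) and 0 rose. Their summed signal was 139790 in M1, 163700 in M3 and 199610 in M5, and 12812 in M2, 23549 in M4 and 12800 in M6, with Mpeg1 at the floor in all 3 mature cultures. Of the 13, 3 were called without M5, 5 without either M2 or M4 and 4 over male cultures alone. With no filter on dim sets none of these markers, nor any of the other lists of cell types named here, was called. M4, the mature culture with the highest macrophage sum, was also the one with the highest Selplg signal. Lyz1 alone gave 9110 of the sum in M4 and 87406 of that in M1. Among the mature cultures Ctss, Cd68 and Adgre1 were highest in M4 too, whereas Csf1r, Lyz2 and Clec7a were highest in M6. Among the precursors the Selplg signal stayed within 19188 to 19755 while the macrophage sums differed. Cd164 was in the same order as the sums among the precursors, M1 lowest and M5 highest. Among the mature cultures Cd164 was 3586 in M2, 3651 in M4 and 2035 in M6. The sums of M2 and M6 were nearly equal there, so no shared order is read from them. Of 8 tested granulocyte markers 2 fell, Chil3 and Anxa1, with sums of 75320 to 200670 in precursors and 5121 to 11208 in mature cultures. Without M3 the number called was 5, with Ltf, Mpo and Ngp added, and without M1, M2, M5 or M6 it was 1, Chil3. Mpo was 614 in M3 against 18908 in M1 and 39343 in M5. Stromal sums were 18255 to 28361 and 8962 to 12481, and 1 of 6 tested markers fell, Igfbp4. Without M2, M3, M5 or M6 its adjusted p rose to as much as 0.0960, and over male cultures alone it was 0.0904. Of 3 tested lymphocyte markers 0 were called, and Cd3d, Cd3e, Cd3g, Cd79a and Cd79b were too dim to be tested. The part of these cells in the signal of Cd164 and Selplg was not tested.

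**Figure D3:**
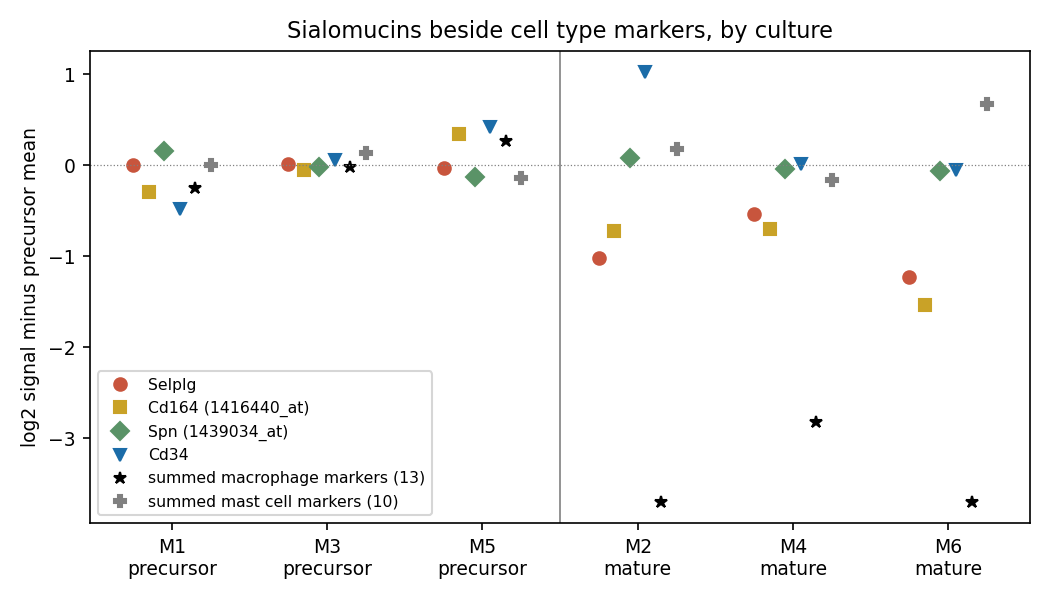
Signal of 4 sialomucins and of summed marker genes in each culture, as log2 signal minus the mean of the 3 precursor cultures. Selplg (circles) and Cd164 (squares) lie below 0 in all 3 mature cultures, where the summed signal of 13 monocyte and macrophage markers (stars) is far lower, while Spn on chip B (diamonds) stays near 0 and Cd34 (triangles) is high in M2. Crosses are 10 summed mast cell markers.

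Enzymes that build and finish the sugars of sialomucins were examined as a list of 45 genes, of which 44 had a probe set and 32 were tested. With the floor at the 30th percentile, none of the 32 was called in either direction, and 6 were at an unadjusted p under 0.05 in limma. Over all tested sets the share at that unadjusted p was 6.59% on chip A and 6.42% on chip B. The share called was 0.527% on chip A and 0.0926% on chip B. The median difference was 0.027, with a range from -1.21 to 2.36. For each gene the brightest tested set of chip A was used, or of chip B where chip A had none. Among these sets the 2 brightest were B4galt1, a galactosyltransferase, and Cmas, which activates sialic acid. B4galt1 was 13.41 ± 0.062 (SD, n = 3) in precursors and 13.31 ± 0.54 (SD, n = 3) in mature cultures on the log2 scale, and Cmas was 13.08 ± 0.46 and 13.18 ± 0.30 in the same order, both overlapping.

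At the ends of that range lay enzymes of the first and last steps of the chain. Galnt6 adds the first sugar of an O-linked chain. Its brighter set, on chip B, gave 13689 in M1, 11672 in M3 and 13343 in M5, against 6312 in M2, 5890 in M4 and 4596 in M6. All mature cultures were below all precursors, with a difference of -1.21 ± 0.21 (SE) and an adjusted p of 0.0761 in limma. Of the settings run, this set passed only with the floor at the table median (0.0373). The adjusted p was 0.132 with station as a block, 0.276 with no intensity trend and 0.544 over male cultures alone. With each culture left out in turn it was 0.151 to 0.285. A dimmer Galnt6 set gave -0.82 (adjusted p = 0.762). St3gal6, a sialyltransferase of selectin ligands, gave 474 in M1, 400 in M3 and 3641 in M5, against 4384 in M2, 3047 in M4 and 6920 in M6 on the one of its sets that was tested. M5 lay above M4, so the groups overlapped, and the difference of 2.36 ± 0.71 (SE) did not pass (adjusted p = 0.509 in limma). Without M5 it was 3.38, with an adjusted p of 0.0356 in limma. Without each of the other 5 cultures it was 1.78 to 2.64, with adjusted p from 0.594 to 0.914. The other St3gal6 sets were too dim to be tested. Those on chip B were at the floor in every culture. Those on chip A were at the floor in every precursor culture and rose above it only in M2 and M6, to at most 566. The St3gal6 difference therefore rests on the tested set alone.

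**Figure D4:**
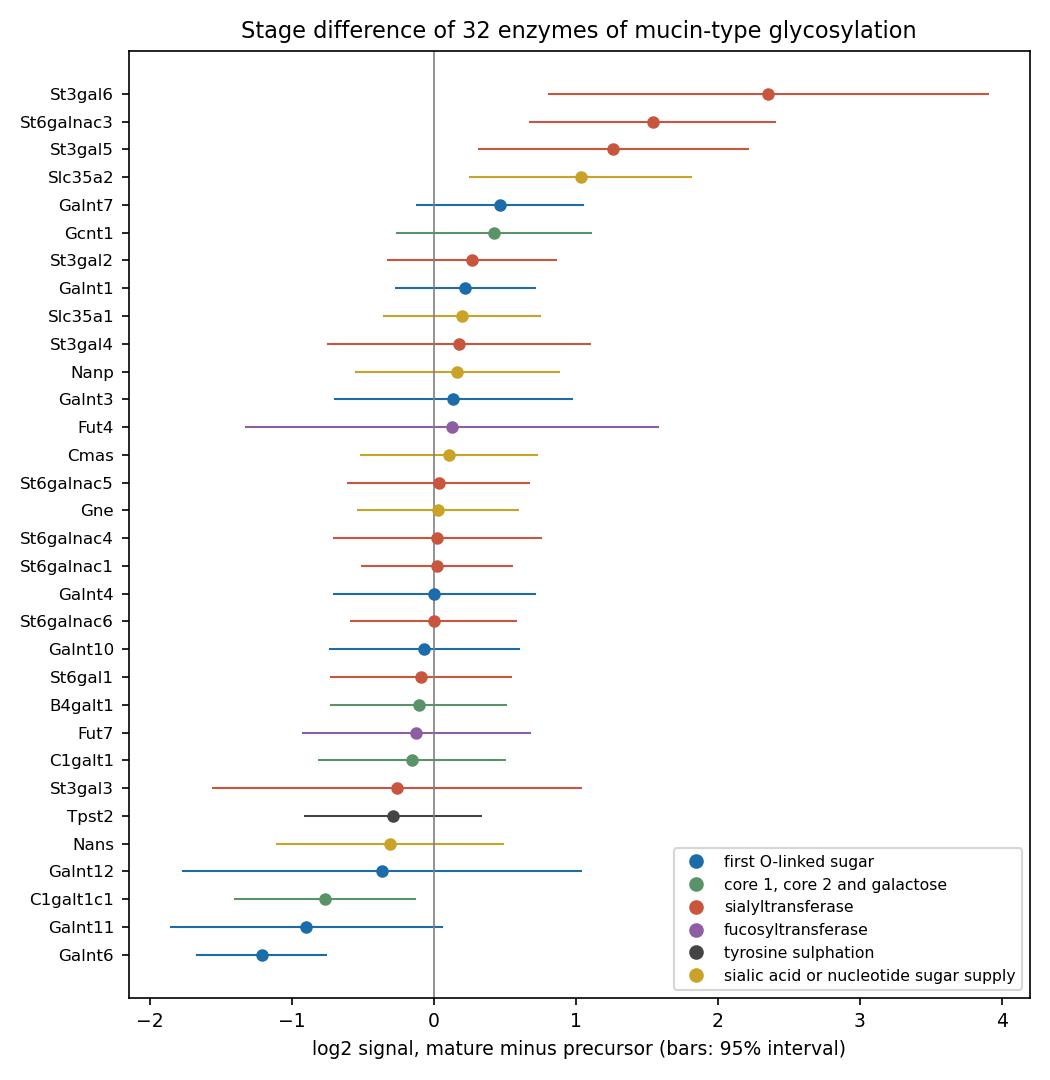
Difference in log2 signal, mature minus precursor, of 32 tested genes of mucin-type glycosylation, by role (colour), with limma 95% intervals (bars, 3 cultures against 3). Galnt6 at -1.21 and St3gal6 at 2.36 mark the ends, and none of the 32 passed the adjusted test with the floor at the 30th percentile.

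PSGL-1 binds P-selectin only after several enzymes have acted on it, and 10 genes of those steps were followed by role. Of these, 9 were tested, 0 were called and 2 (C1galt1c1 and St3gal6) were at an unadjusted p under 0.05 in limma. Of all tested sets 6.59% were at that unadjusted p on chip A and 6.42% on chip B, and 0.527% and 0.0926% were called. C1galt1c1, the chaperone of the core galactosyltransferase C1galt1, gave 3010 in M1, 2307 in M3 and 4008 in M5, against 2293 in M2, 1731 in M4 and 1420 in M6. Its mature cultures were all below the precursors, M2 by a narrow margin from M3, with a difference of -0.77 ± 0.29 (SE, adjusted p = 0.595 in limma). C1galt1 itself gave -0.15 on chip A and -0.41 on chip B. The branching enzyme Gcnt1 gave 2040 in M1, 2536 in M3 and 2220 in M5, against 3727 in M2, 3982 in M4 and 1867 in M6 on chip A. Its chip A difference was 0.42 ± 0.31 (SE, adjusted p = 0.868 in limma) and that of its chip B set was -0.25, so the signs of the 2 sets differed. The fucosyltransferase Fut7, which completes the selectin-binding sugar, gave 1209 in M1, 1323 in M3 and 995 in M5, against 1052 in M2, 648 in M4 and 1807 in M6. M6 was the highest and M4 the lowest, and the difference was -0.12 ± 0.37 (SE, adjusted p = 0.977 in limma). The other fucosyltransferase, Fut4, gave 0.13, and St3gal4, a sialyltransferase of the same sugars, gave 0.18. Tpst2, which sulphates tyrosines, gave 943 in M1, 851 in M3 and 1213 in M5, against 855 in M2, 763 in M4 and 819 in M6, a difference of -0.29 ± 0.28 (SE, adjusted p = 0.909 in limma). Tpst1, the other tyrosine sulphotransferase, was too dim to be tested.

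Partners of the sialomucins were listed as 16 genes, binding partners outside the cell and adaptors, proteases and kinases of the cell itself. Of these 15 had a probe set and 11 were tested. None was called, beside 0.527% of all tested sets of chip A, and the median difference was 0.039. At an unadjusted p under 0.05 in limma was 1, beside 6.59% of all tested sets of chip A. The 2 brightest were Msn (moesin), with a difference of 0.030, and Slc9a3r1 (NHERF1, an adaptor for podocalyxin), with 0.11. Ezr (ezrin), which links such tails to actin, gave 2906 in M1, 2518 in M3 and 2507 in M5, against 4045 in M2, 3417 in M4 and 5441 in M6. All mature cultures were above all precursors on this set, by 0.68 ± 0.25 (SE, adjusted p = 0.586 in limma), whereas another set of Ezr gave -0.019 (adjusted p = 0.998). Crkl, an adaptor bound by CD34, gave 0.48 with overlapping groups. The selectins Sele and Selp, Siglec1 and Cxcr4 were too dim to be tested.

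Of 10 other mucin-like proteins 6 were tested, with a median difference of -0.59. Called was 1 of them, beside 0.527% of all tested sets of chip A. Cd68, a macrophage endolysosomal glycoprotein and itself one of the macrophage markers above, fell by 2.07 on the log2 scale (adjusted p = 0.020 in limma). The call was lost without M1, M2, M4 or M5 (adjusted p up to 0.142). It was also lost over male cultures alone (0.0904) and with no filter on dim sets (0.332). Cd24a, a small anchored mucin-like protein, was lower in all 3 mature cultures than in any precursor culture, with a difference of -1.57 (adjusted p = 0.188 in limma). Of the settings run, Cd24a passed only with sex as a block (adjusted p = 0.0496). The lysosomal Lamp1 and Lamp2 gave -0.073 and 0.011. Of 15 stem and progenitor cell genes 11 were tested and 0 were called, beside 0.527% of all tested sets of chip A. Their median difference was 0.23. The brightest of them, Kit and Gata2, are mast cell genes too and gave 0.33 and 0.29.

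The genes whose signal followed each sialomucin most closely over the 6 cultures were found by Pearson's r among 10459 candidate sets of chip A and 7298 of chip B. With 6 points, which share their arrays, and so many candidates, values near 1 arise easily, and the correlations are a description only. Cd34 was followed by Hspa4 (r = 0.984), Slc45a3 (0.980) and Tnf (0.980), and all 3 had their highest signal in M2, as Cd34 did. Podxl was followed by Dbh (0.988), Nudt8 (0.983) and Clrn3 (0.980), each lowest in M4. Cd164 was followed by Ube2b (0.994), Erp29 (0.992) and Nudcd2 (0.992), each highest in M5 and lowest in M6. The chip B set of Spn was followed by Pacs2 (0.987), Ap5z1 (0.980) and Senp8 (0.980), each highest in M1. Selplg was followed by Slpi (0.999), Rps24 (0.999) and Lyz1 (0.996). Slpi and Lyz1 fell (adjusted p = 0.022 and 0.00464 in limma), and Lyz1 is one of the macrophage markers. For Cd164, Selplg and the genes that followed them the stages did not overlap, so r there spans 2 separate groups of points.

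The difference between mature and precursor cultures was also compared between the sexes, M1 and M6 against the 4 male cultures, by the interaction of stage and sex in limma. Its adjusted p was at least 0.867 for each of the 6 tested sets, and with 1 female culture per stage the female difference has no spread of its own.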

How the data were processed

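Total RNA of 6 cultures was hybridised to Affymetrix arrays. The deposited values are linear intensity per probe set, made by the authors with MAS5 per the submitters' processing notes, which state no version or settings. The mean of each array without its top and bottom 2% was 1501 on chip A and 1500 on chip B, so arrays had been scaled alike, and no detection calls were used. The deposited instrument records (unit other) were read for fluidics station and scan day. Symbols came from the platform annotation, which is old.

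Each chip was handled apart, without its 64 control sets. Values were floored at the 30th percentile and log2 taken, and 11576 of 22626 sets (chip A) and 11880 of 22511 (chip B) passed the filter. limma 3.58.1 in R 4.3.3 (lmFit, eBayes with trend, two-sided, Benjamini-Hochberg per chip, no covariate) called 61 and 11 sets. The fit was first run on simulated data with independent noise, which cannot show how effects shared by arrays or cultures act on it. A list used the brightest tested set per gene on chip A, or on chip B where chip A had none, and summed signals add these sets. Alternatives covered scaling, floor, filter, trend, array weights, sex, station and left-out cultures.

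All probe sets of the 6 genes are named, with the 3 genes most similar to the brightest tested set of each of the 5 tested genes, and from lists up to 3 called rises and 3 falls or the 2 brightest. The members and lists were chosen with earlier results of these data known. Galnt6, St3gal6, the genes of selectin-ligand synthesis, Ezr, Crkl, Cd24a, Lamp1, Lamp2, Tek, Eng, Cpa3, Cma1, Tpsab1 and the further called or untested markers were chosen after their values were seen.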

Additional observations from a re-analysis of the deposited data

How the results depend on the processing

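None of the sialomucin sets was called in any setting run. Apart from settings that left cultures out, described next, signs turned only for Spn and Podxl sets with differences near 0. Spn 1439034_at gave 0.059 with quantile normalization, Podxl 1417396_at 0.11 with a 50th percentile floor, and Spn 1422133_at gave 0.036 with array quality weights. Over male cultures alone, Spn 1439034_at gave 0.095 and Spn 1422133_at 0.17, a split chosen after seeing the data, as were the values within a station. Cd34 gave -0.25 on the second station, Spn 1422133_at 0.45 and Spn 1439034_at 0.024. With each culture left out in turn the range was -0.016 to 0.54 for Cd34, -0.32 to 0.41 for Podxl 1417396_at, -0.31 to 0.24 for Spn 1422133_at and -0.074 to 0.068 for Spn 1439034_at. Cd164 1416440_at and Selplg stayed below 0 in every setting. The called sets of chip A were 1 with no filter and 21 (without M5) to 59 with a culture left out (25 without M2). Those of chip B were 4 with no floor, 17 with a 50th percentile floor, 0 with no filter (1227 at an unadjusted p under 0.05 in limma), 6 with a mean signal above the 60th percentile, 3 with no trend, 7 with array weights, 17 with sex as a block, 2 over male cultures and 3 (without M6) to 11 with a culture left out. The cause was not tested. No paired analysis was possible because the cultures of the groups share no replicate number. Scan day was not run as a block, since each chip had 1 scan day. With no detection calls, signal over background limits Emcn and the second set of Cd164.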
